A study of Mus musculus with 4 samples.

Results

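A set of 10 genes that carry or restrain the integrated stress response was followed in nimodipine-exposed N9 cells, a mouse microglial line that grows without limit in culture. The set comprised Ddit3 (which encodes CHOP), Trib3, Atf4, Atf3, Atf5, Chac1, Cebpb, Cebpg, Nupr1 and Ppp1r15a. The genes were chosen by gene symbol, with earlier results of these arrays known. All 10 were measured, out of 22180 genes, and each had 1 probe set. Nimodipine, a dihydropyridine, is a blocker of calcium channels of the L type, and the series asks what such drugs do in murine microglia. RNA was hybridised to 4 Affymetrix arrays: 2 from cells given vehicle (vehicle 1 and vehicle 2), 1 from cells given 10 µM nimodipine and 1 from cells given 20 µM. Nothing in the labels describes any other stimulus, and the exposure time is not given in the sources used here. The treatment label speaks of a matching vehicle for each dose but does not tie either vehicle array to a dose, so each dose was compared with both.

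The integrated stress response begins when kinases that sense faulty protein folding, amino acid shortage, heme shortage or double-stranded RNA phosphorylate the translation factor eIF2alpha. Most translation then slows, while the messenger RNA of the transcription factor ATF4 is translated better. ATF4 pairs with other basic leucine zipper factors, among them C/EBP proteins, at composite sites called C/EBP-ATF response elements (CARE), and switches on genes of amino acid supply, CHOP and its own antagonists. In microglia and other phagocytes this response meets the inflammatory program through shared factors such as C/EBPbeta and ATF3.

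RefSeq promoter windows (GRCm38.p6) were found for all 10 genes, 11 windows in all because Atf5 has 2, and the 250 bases before each start were searched on both strands. The 4 windows shown here are those that held a CARE core, TGATGNAA, or the near variant TGGTGCAA. The variant was added to the search after the Trib3 sequence had been seen. Each runs 5′ to 3′ toward its gene, and capitals mark the match; TTGCATCA is the core read on the opposite strand.
Chac1 (chr2:119350992-119351241, plus strand): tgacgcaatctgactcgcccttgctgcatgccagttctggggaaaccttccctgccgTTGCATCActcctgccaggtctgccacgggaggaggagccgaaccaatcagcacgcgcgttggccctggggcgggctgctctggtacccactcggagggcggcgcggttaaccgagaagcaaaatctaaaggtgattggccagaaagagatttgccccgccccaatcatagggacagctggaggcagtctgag
Nupr1 (chr7:126625471-126625720, minus strand): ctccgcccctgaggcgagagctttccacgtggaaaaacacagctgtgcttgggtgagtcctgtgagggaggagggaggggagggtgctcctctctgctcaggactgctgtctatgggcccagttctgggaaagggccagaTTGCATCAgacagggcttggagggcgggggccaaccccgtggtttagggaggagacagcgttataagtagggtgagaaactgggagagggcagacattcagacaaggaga
Atf3 (chr1:191183334-191183583, minus strand): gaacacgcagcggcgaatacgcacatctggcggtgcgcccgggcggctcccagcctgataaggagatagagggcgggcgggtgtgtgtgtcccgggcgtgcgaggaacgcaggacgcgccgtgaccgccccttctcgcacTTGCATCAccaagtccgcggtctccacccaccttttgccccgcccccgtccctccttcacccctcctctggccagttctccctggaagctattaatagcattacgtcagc
Trib3 (chr2:152344061-152344310, minus strand): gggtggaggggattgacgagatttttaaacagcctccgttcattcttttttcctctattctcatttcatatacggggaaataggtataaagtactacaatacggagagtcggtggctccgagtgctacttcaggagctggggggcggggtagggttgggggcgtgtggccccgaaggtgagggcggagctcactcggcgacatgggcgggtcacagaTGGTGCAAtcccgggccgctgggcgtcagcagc

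The core lay at -193 to -186 from the start in Chac1 and at -110 to -103 in both Nupr1 and Atf3. It is present in 3.45% of the 32851 RefSeq windows of this length. The Trib3 variant lay at -33 to -26, and 0.463% of windows hold it. Other searched motifs were the cyclic AMP element TGACGTCA (1.55% of windows), found in Ppp1r15a, and the AP-1 site TGANTCA (6.75%), found in Ddit3. The CCAAT box (CCAAT, 33.8% of windows) was found in Ddit3, Atf4, Atf5, Cebpg and Chac1. The endoplasmic reticulum stress elements ERSE (0.113% of windows) and ERSE-II (0.0304%) had no exact match in the windows of the 10 genes. Near variants of these elements were not searched, unlike for the CARE core. A near variant of ERSE does begin at the CCAAT box of Ddit3, at -77 to -73 on the opposite strand. It ends in GCACG where the ERSE pattern ends in CCACG. No match overlapped another. A match here describes letters in a window and is not a shown binding site.

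**Figure D1:**
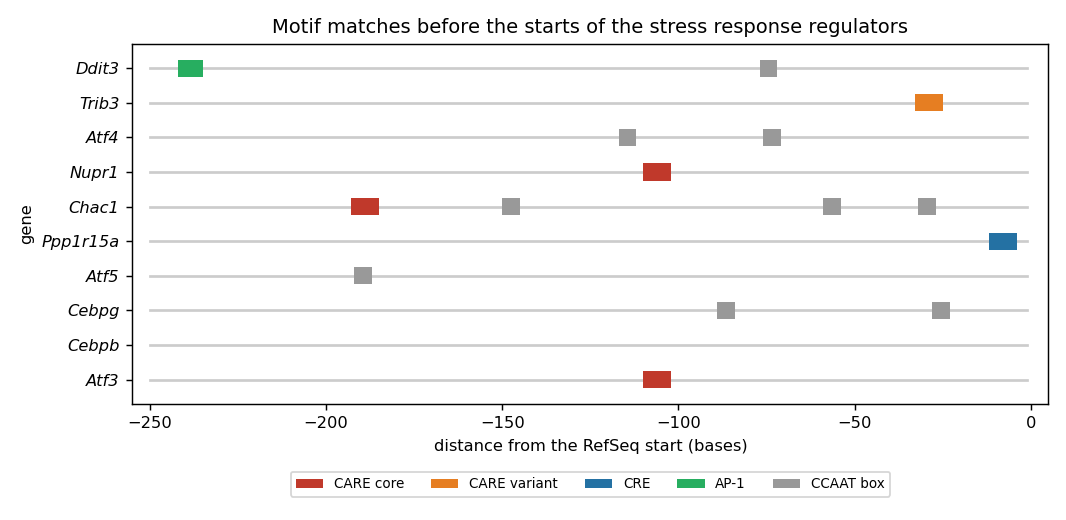
Positions of motif matches in the 250 bases before each RefSeq start (x axis, bases from the start; y axis, gene, ordered by its difference at 10 µM; Atf5 pools its 2 windows). Coloured blocks are matches on either strand: the CARE core appears in Nupr1, Chac1 and Atf3, its variant in Trib3, and Cebpb has no match.

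Values below are deposited log2 expression, normalised by the authors with RMA, and differences are on the same log2 scale. Array medians ran from 5.02 to 5.06, and no member fell below the median of all values, 5.04, on any array. Of 12 microglia and macrophage markers, 10 were at or above that median on every array, while P2ry12 and Tmem119, markers of resting microglia, were below it on every array. The mean of those 12 markers was 8.56 and 8.55 in vehicle, 8.35 at 10 µM and 8.57 at 20 µM; the part of this shift in the results was not tested. Markers of astrocytes (2 of 5), neurons (2 of 5), oligodendrocytes (4 of 4) and fibroblasts or endothelium (2 of 7) reached the median on every array, with list means between 4.74 and 6.002 on each array.

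CHOP and the pseudokinase that follows it stood furthest from vehicle on the 10 µM array. Ddit3, the transcription factor CHOP, which links prolonged stress to cell death, measured 7.32 on vehicle 1, 7.24 on vehicle 2, 10.64 with the lower dose and 7.41 with the higher. The pseudokinase gene Trib3, whose product binds and restrains ATF4 and CHOP, measured 7.46 and 7.34 with vehicle, 10.65 at 10 µM and 7.23 at 20 µM. In both genes the 10 µM array stood alone and the other 3 arrays lay close together. The 10 µM difference from the vehicle mean was 3.36 ± 0.15 for Ddit3 and 3.25 ± 0.15 for Trib3 (limma SE). Ranked from the highest difference down, these were numbers 5 and 7 of 22180 genes.

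Atf4, the factor at the head of this program, was at 8.86 and 8.84 with vehicle, 10.33 at 10 µM and 8.87 at 20 µM. It rose 2.79-fold at 10 µM, a difference of 1.48 ± 0.14 (SE), while the vehicle arrays differed by -0.03. Atf5, a related factor of mitochondrial stress, was at 6.40 and 6.25, then 7.28 and 6.26. Its 10 µM difference of 0.95 ± 0.15 missed the threshold (limma adjusted p = 0.0524), and passed it when arrays were set to equal medians (0.0303) or by cyclic loess (0.0299), when dim probe sets were left out (0.0112) and with an intensity trend in the variance (0.0174). Atf3, a factor of immediate stress and of inflammation, was at 9.21 and 9.39, then 9.504 and 9.56. It was the only member whose highest value was at 20 µM, and its difference of 0.21 ± 0.16 at 10 µM did not pass (limma adjusted p = 0.580, 95% interval -0.18 to 0.59). Its promoter window holds the same core at the same distance as that of Nupr1.

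Neither C/EBP gene passed the threshold. Cebpg, which forms heterodimers with ATF4, was at 8.46 and 8.27 with vehicle, 9.15 at 10 µM and 8.35 at 20 µM, a 10 µM difference of 0.78 ± 0.16 (SE; limma adjusted p = 0.0903). Cebpb, a C/EBP factor of myeloid activation, was at 7.80 and 7.84, then 8.32 and 8.00, a difference of 0.50 ± 0.14 (limma adjusted p = 0.173). For both genes the 10 µM array was the highest. Cebpg passed with dim probe sets left out (limma adjusted p = 0.0237) or with an intensity trend (0.0202).

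The effectors and feedback genes rose at 10 µM. Chac1, an enzyme that breaks down glutathione, was at 5.36 and 5.21 with vehicle, 6.30 at 10 µM and 5.76 at 20 µM. It was the member closest to the median of all values, where array folds can be too small. Nupr1, a small stress-induced chromatin protein, was at 8.31 and 8.59, then 9.66 and 8.27. Ppp1r15a (GADD34), the regulatory subunit that directs a phosphatase to eIF2alpha and so ends the response, was at 7.44 and 7.39, then 8.40 and 7.25. Their 10 µM differences were 1.01 ± 0.15, 1.21 ± 0.17 and 0.98 ± 0.14 (SE). The vehicle arrays of Nupr1 differed by 0.28, the widest gap among the members.

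**Figure D2:**
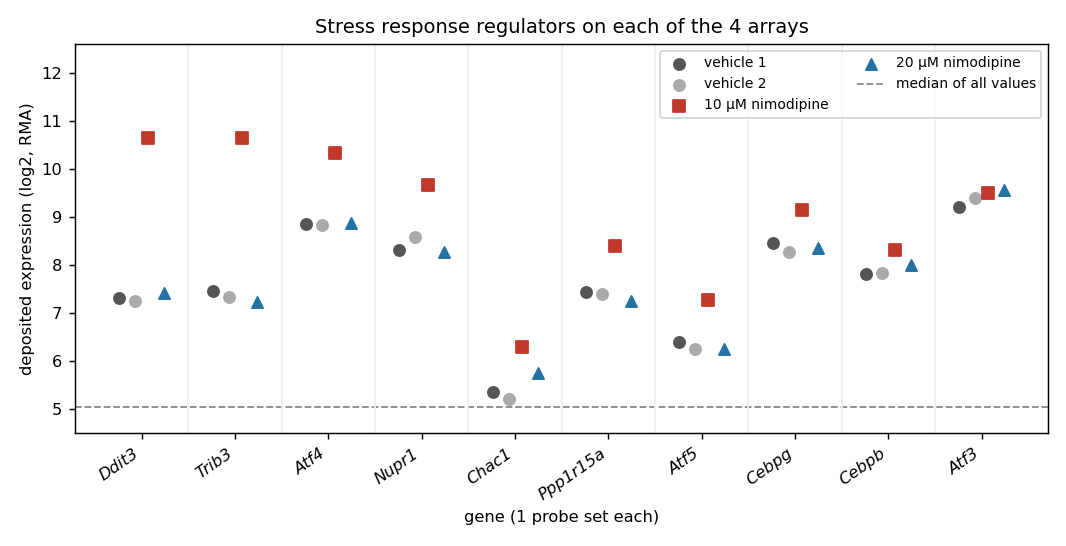
Deposited log2 expression of each gene (y axis) on vehicle 1, vehicle 2, 10 µM and 20 µM nimodipine arrays, 1 point per array, genes ordered by their 10 µM difference; the dashed line is the median of all values. The 10 µM square is the highest of the 4 points in every gene except Atf3, and the 20 µM triangle lies within 0.48 of the vehicle mean in every gene.

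At 10 µM, 6 of the 10 members passed limma's test against vehicle, all higher, beside 0.509% of all genes called higher and 1.08% called lower. The adjusted p was 0.00286 for Ddit3 and for Trib3, 0.0197 for Atf4, 0.0420 for Nupr1, 0.0444 for Ppp1r15a and 0.0470 for Chac1. With arrays at equal medians or after cyclic loess, Atf5 joined them, making 7; with dim probe sets left out or an intensity trend Atf5 and Cebpg did, making 8. The members' median difference was 1.00, beside 0.01 over all genes, and 5 were higher by 1 or more, as were 0.514% of all genes. All 10 members lay above both vehicle arrays at 10 µM, which 39.1% of all genes did, and in 9 the 10 µM value was the highest of the 4, as in 30.6% of all genes. The members were chosen with earlier results of these arrays known. Their counts and median beside those of all genes are therefore no independent support for a response of the set. The test came from a fit of 3 groups with 1 residual degree of freedom, from the vehicle pair. For each gene, eBayes combined its own spread with a prior estimated over all genes (4.88 degrees of freedom, SD 0.128). The standard errors, intervals and p-values of the members therefore rest more on that prior than on each member's own vehicle gap. The test also assumes that the nimodipine arrays, 1 per dose, were no more variable than vehicle arrays. When every one of the 41345 probe sets was tested instead, limma called 0 members and 0 probe sets at 10 µM, with an adjusted p of 0.238 for Ddit3 and Trib3 and the same differences.

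At 20 µM no member passed (limma, smallest adjusted p = 0.762), nor did any of the 22180 genes, so 0.0% were called in either direction. At an unadjusted p under 0.05, 1 member was higher, as were 3.25% of genes. That member was Chac1, with a difference of 0.48 ± 0.15 (SE), a 95% interval of 0.10 to 0.85 and a vehicle gap of -0.15. The other 9 members differed from the vehicle mean by between -0.18 and 0.26. Of the 10, 5 lay above the vehicle mean (49.3% of genes did) and 5 below it (50.7%), their median being 0.00, though Atf4 (0.02) turned negative with equal array medians and Cebpg (-0.02) turned positive after cyclic loess. For Ddit3 the 95% interval at 20 µM ran from -0.23 to 0.49, and for Trib3 from -0.53 to 0.20.

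Because both doses share the vehicle arrays, the doses were also compared directly. This sets 1 array against 1 and does not use the vehicle means. Its standard errors still come from the vehicle pair and the prior, since no spread between nimodipine arrays of a dose was measured. Ddit3 was lower at 20 µM than at 10 µM by a difference of -3.23 ± 0.17 (SE), Trib3 by -3.42 ± 0.17 and Atf4 by -1.46 ± 0.17. The limma adjusted p was 0.00701, 0.00701 and 0.0465. These 3 were the members called, beside 0.144% of genes lower and 0.171% higher; with equal medians or cyclic loess 5 members were called, Nupr1 and Ppp1r15a being added, with dim probe sets left out or a trend 7, Atf5 and Cebpg being added too, and with all probe sets none was. Nupr1 (-1.39) and Ppp1r15a (-1.15) each had an adjusted p of 0.0675 and Atf5 (-1.02) 0.0949. For Chac1 the difference was -0.54, with an interval of -0.97 to -0.10 and an adjusted p of 0.273. Atf3 was the exception in sign, at 0.05 with an interval of -0.39 to 0.50.

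**Figure D3:**
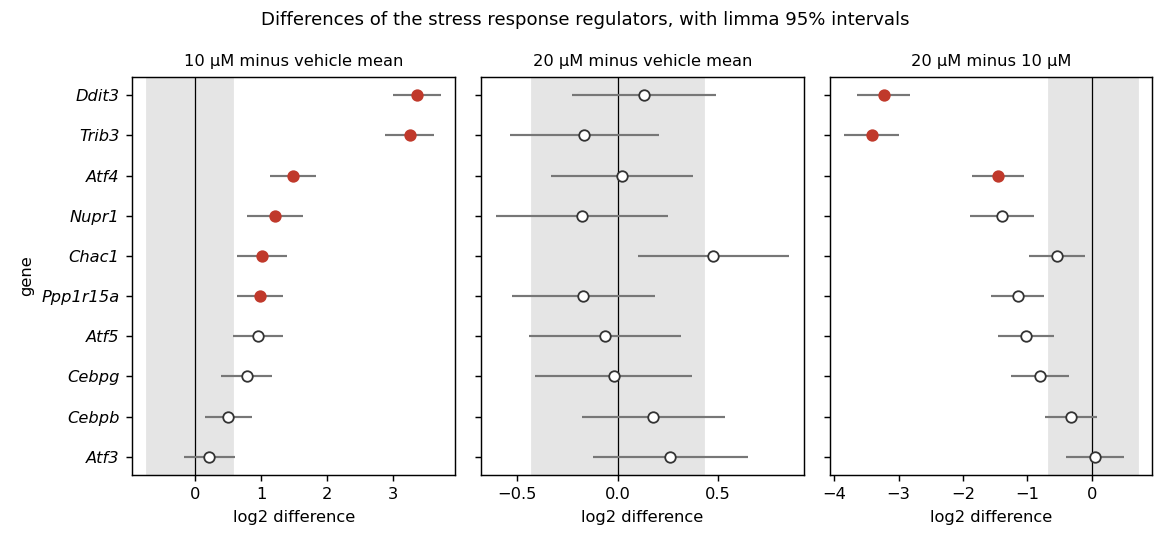
Log2 differences (x axis) of each gene for 10 µM against the vehicle mean, 20 µM against the vehicle mean and 20 µM against 10 µM, with limma 95% intervals; filled red points passed an adjusted p of 0.05 and the grey band spans the central 95% of all genes. The x scales differ between panels: Ddit3 and Trib3 lie beyond 3 at 10 µM, while at 20 µM Chac1 alone leaves the band.

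With both doses taken as 1 group against vehicle, 2 arrays against 2, 0 members and 0.0% of genes passed limma's test. The smallest adjusted p among members was 0.792. The spread within the nimodipine group then contains the gap between the doses, and the difference for Ddit3 was 1.75 ± 0.94 (SE). At an unadjusted p under 0.05 Chac1 alone passed, with a difference of 0.74 ± 0.20, where 2.39% of genes did so on the high side. In 5 members (Ddit3, Atf4, Atf3, Chac1 and Cebpb) each nimodipine array exceeded each vehicle array, as in 19.2% of genes. An exact permutation test over 2 against 2 arrays cannot go below p = 0.333.

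Upstream of ATF4, Eif2ak2 was the 1 gene that passed at 10 µM, and it was lower. All 4 eIF2alpha kinases were below the vehicle mean at 10 µM. Over all genes 47.6% were lower and 52.4% higher by any amount, and 1.08% and 0.509% were called. Eif2ak2 (PKR, the sensor of double-stranded RNA) fell 1.93-fold, from 7.995 and 7.98 to 7.04, and stood at 7.90 at 20 µM (limma adjusted p at 10 µM = 0.0470). Eif2ak4 (GCN2), Eif2ak3 (PERK) and Eif2ak1 (HRI) differed by -0.27, -0.20 and -0.12 and did not pass. A list of 12 genes held the beta subunit of eIF2 (Eif2s2), its exchange factor eIF2B, the phosphatase, and Eif2a and Eif2d, which encode separate initiation factors. None of the 12 passed, and Eif2s2 differed by 0.52. The gene of eIF2alpha itself, Eif2s1, was not analysed here. Of 10 sensors and modulators none passed; Dnajc3, a chaperone that inhibits eIF2alpha kinases, differed by 0.44, Tarbp2 by -0.37 and Prkra by -0.27, the last a protein activator of PKR. Transcript levels do not report the phosphorylation that sets this step.

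Other leucine zipper factors that can pair with the members were split, 14 of 29 higher and 15 lower at 10 µM, with a median of -0.09, beside 52.4% and 47.6% of all genes. Nfe2l1, a factor of proteasome gene control, was the 1 that passed and rose 2.56-fold, from 8.02 and 7.97 to 9.35, with 8.14 at 20 µM (limma adjusted p = 0.0222). Equal medians or loess raised the number called to 3, and leaving out dim probe sets or a trend to 4. Jdp2, a repressor related to ATF3, differed by 0.92 (adjusted p = 0.0574), Nfil3 by 0.90 (0.0549) and Batf by 0.81 (0.127). Of 12 genes linked to CHOP, 3 rose, where 0.509% of all genes did, 6 lay below the vehicle mean and the median was 0.0005. The list does not separate genes that CHOP raises from genes that it lowers, and whether the 3 follow CHOP was not tested. Car6, a carbonic anhydrase known from CHOP-expressing cells, was at 4.33 and 4.499 in vehicle, under the median of all values. It was at 9.74 at 10 µM and 5.13 at 20 µM (limma adjusted p at 10 µM = 0.00121). Tenm4, a teneurin likewise known as a CHOP-dependent transcript, rose 2.93-fold (0.0209). Bcl2, which opposes apoptosis, rose 2.95-fold with a borderline adjusted p of 0.04998 and vehicle arrays 0.56 apart; the robust fit called 2 genes of this list rather than 3. Nlrp3, an inflammasome sensor, differed by -1.24 and did not pass (0.0598), but 1 gene of this list was called lower with equal medians, loess, a trend or dim probe sets left out.

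Targets of ATF4 in amino acid supply were mostly higher at 10 µM. Of 12 amino acid synthesis genes, 11 were higher and 5 rose (Cth, Aldh1l2, Asns, Psph and Gpt2), with a median difference of 0.86. Over all genes 52.4% were higher, 0.509% were called higher and the median was 0.01. The number called was 6 with equal medians, 7 after loess and 8 with dim probe sets left out or a trend. Asns, which makes asparagine, was at 8.97 and 8.96, then 10.48 at 10 µM and 9.10 at 20 µM (limma adjusted p at 10 µM = 0.0185). Cth, which makes cysteine, was at 6.27 and 6.65, then 9.70 and 6.60 (0.00544). Of 9 amino acid transporters, 3 rose: Slc1a4 2.75-fold, the cystine importer Slc7a11 2.37-fold and the leucine carrier Slc7a5 2.10-fold. With a trend 5 of these were called higher and 1 lower. Slc38a2, a glutamine carrier and also an ATF4 target, was the 1 with the most negative difference, -0.63, and did not pass (0.116).

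The tRNA synthetase list, 12 genes with the tRNA exporter Xpot, had 11 higher and a median of 0.76, beside 52.4% and 0.01 over all genes. In it 2 rose (0.509% of all genes): Wars 2.87-fold (limma adjusted p = 0.0209) and Yars 1.95-fold (0.0477). Eprs and Gars differed by 0.86 and 0.79 and did not pass. The number called in this list was 4 with equal medians or loess and 8 with dim probe sets left out or a trend. The 15 other ATF4 targets did not move one way, with 6 higher, 9 lower and a median of -0.06. Sqstm1, an autophagy receptor, rose 2.84-fold and Gtpbp2, a GTPase of ribosome rescue, rose 2.27-fold. Ddit4 (REDD1), an inhibitor of mTORC1 that ATF4 and hypoxia both induce, fell from 9.06 and 8.99 to 6.83, 4.58-fold, and stood at 8.92 at 20 µM (0.00672). Ndrg1, likewise responsive to hypoxia, differed by -0.86 and did not pass (0.0602). In this list 3 genes were called higher and 3 lower with equal medians, a trend or dim probe sets left out.

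The other branches of the endoplasmic reticulum stress response were examined beside the ATF4 branch. Of 20 genes of the ATF6 and XBP1 arms, 18 were higher at 10 µM (52.4% of all genes), with a median of 0.34, and 3 rose (0.509%); 5 did with dim probe sets left out or a trend. Herpud1, an adaptor of endoplasmic reticulum degradation that ATF4 also induces, rose 2.80-fold (limma adjusted p = 0.0280), Ern1 (the sensor IRE1alpha) 2.55-fold (0.0222) and the chaperone Hspa5 2.35-fold (0.0296). At 20 µM 15 of the 20 were higher (49.3% of all genes), with a median of 0.06. Of 9 mitochondrial chaperones and proteases, which ATF5 is known to regulate, 6 were higher (52.4% of all genes) and none passed. With dim probe sets left out or a trend 3 of them were called higher and 1 lower, and with equal medians or loess 1 was called lower. Lonp1, the matrix protease, differed by 0.76 and Clpx, the unfoldase of another matrix protease, by -0.84; Hspe1 and Dnaja3, both chaperone components, differed by 0.63 and 0.56.

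Of all 144 genes of these lists, 93 were higher and 51 lower at 10 µM, beside 52.4% and 47.6% of all genes, and 19 rose and 2 fell, beside 0.509% and 1.08%. At 20 µM 0 passed, and the 70 higher and 74 lower lay near the 49.3% and 50.7% of all genes. The called counts at 10 µM were 26 and 6 with equal array medians, 27 and 5 after cyclic loess, 39 and 7 with an intensity trend in the variance, and 0 and 0 when all probe sets were tested. The lists were chosen with earlier results of these arrays known, and their counts are no independent support for each other or for the members.

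**Figure D4:**
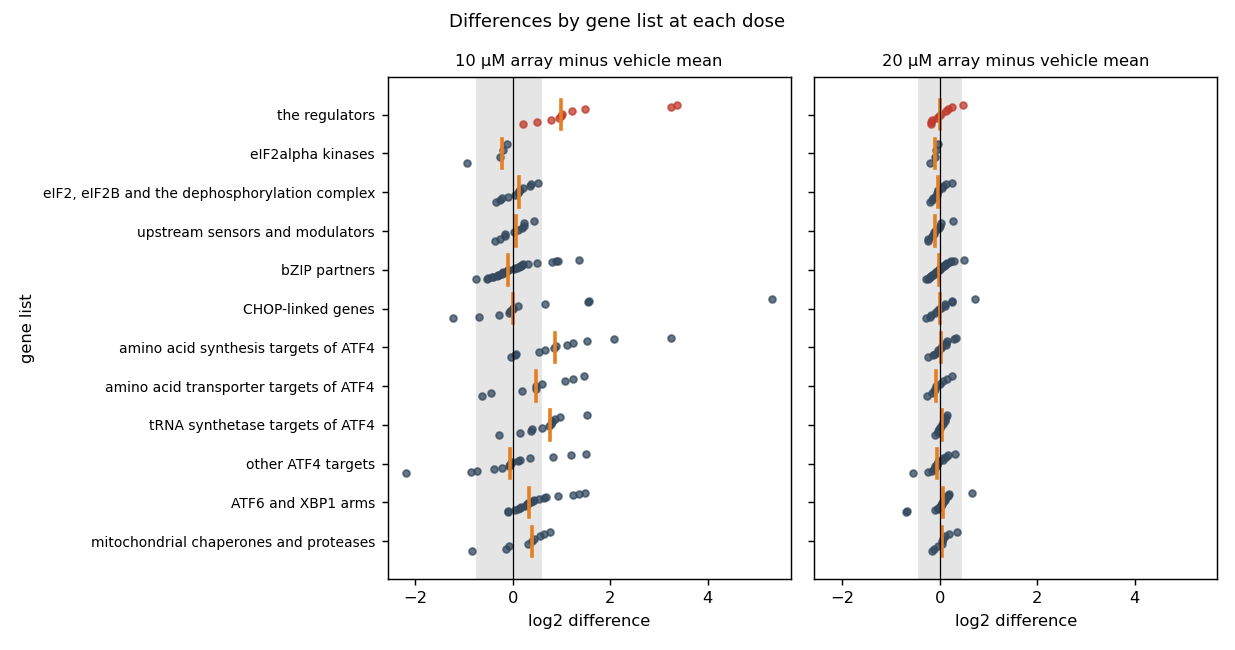
Log2 difference from the vehicle mean (x axis) of every measured gene of each list (y axis), at 10 µM on the left and 20 µM on the right; points are genes, orange bars list medians and the grey band the central 95% of all genes. At 10 µM the amino acid synthesis and tRNA synthetase lists have medians of 0.86 and 0.76, and at 20 µM every list median lies within the band.

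The genes nearest to Ddit3 in pattern were sought by Euclidean distance over the 4 arrays, after subtracting each gene's own vehicle mean. They were Cox6a2 (distance 0.20), a cytochrome c oxidase subunit, Gbp8 (0.20), a guanylate-binding protein, Cth (0.35), Ms4a6d (0.66) and Acot2 (0.71), a mitochondrial acyl-CoA thioesterase. The same 5 genes were nearest to Trib3, led by Gbp8 at 0.37 and Cox6a2 at 0.41. Ddit3 and Trib3 themselves lay 0.32 apart. Among the members the closest pair was Atf5 and Ppp1r15a, at 0.13. With 1 array at each dose these distances rest mainly on the 10 µM array. Ms4a6d also entered the search through that array. It measured 4.70 and 4.44 with vehicle, below the median of all values (5.04), and 7.43 at 10 µM.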

How the data were processed

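RNA was measured on 4 arrays (2 vehicle, 1 at each dose). TRIzol extraction and WT PLUS labelling are given per the labels. The values deposited by the authors are log2 expression per probe set, produced by RMA in Affymetrix Expression Console 1.2.1.20 per the submitters' processing notes. RMA sets arrays to one distribution, so a change shared by most genes would not be seen. The platform annotation gave 1 symbol to 23521 of 41345 probe sets; the probe set with the highest mean stood for each gene, which left 22180 genes. All 10 members matched the RefSeq gene table.

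limma 3.58.1 (R 4.3.3; lmFit and eBayes) was fitted to all genes, with Benjamini-Hochberg adjustment over all of them and a threshold of 0.05. One fit took vehicle, 10 µM and 20 µM as 3 groups with 1 residual degree of freedom, the other nimodipine against vehicle. On simulated arrays of 22180 genes for 10 µM against vehicle, 28% of changes of 1 and 100% of changes of 2 on the log2 scale were recovered. All 4 simulated arrays of a gene had the same spread, so the lone array varied like the vehicle pair by construction. These shares cannot show how the test performs where that assumption fails. Separate cultures are not stated in the labels, and p-values therefore cover array-to-array spread that may be technical. Precision is limited by the number of arrays.

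The members and lists were chosen with earlier results of these data known. Genes named were the members, up to 4 genes of each list by absolute difference at 10 µM, and the 5 genes nearest to Ddit3 and to Trib3, predicted genes and the like being passed over; Gpt2 and Xpot are named beside a count and a list label. Outside this rule, P2ry12, Tmem119, Dnajb9, Syvn1 and Derl3 were named after their values were seen, and Eif2s1 for what the eIF2 list lacks. Aqp9, Avil, Chchd10 and Olfr491 are named to complete the called genes that held the CARE core. The fits were repeated without dim probe sets, on averaged or on all probe sets, with equal medians or cyclic loess, with trend or robust eBayes, with a 1.5-fold threshold and without single arrays.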

Additional observations from a re-analysis of the deposited data

Results flagged for a closer look

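The responses of 3 members differed between the doses, by limma's test of 20 µM against 10 µM. Ddit3 differed by -3.23 (adjusted p = 0.00701), Trib3 by -3.42 (0.00701) and Atf4 by -1.46 (0.0465), each lower at the higher dose. Each dose had 1 array, so dose and array cannot be told apart in this difference.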

How the results depend on the processing

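At 10 µM all 10 members stayed above the vehicle mean under each alternative run. limma called 6 members there, 7 with equal medians, loess or mean probe sets, 8 with dim probe sets left out or a trend, 6 with robust eBayes and 0 with all probe sets. Over all genes it called 353 at 10 µM, 1282 with dim probe sets left out, 654 with equal medians, 558 after loess, 1175 with a trend and 0 with all probe sets. For 20 µM against 10 µM it called 3 members, 7 with dim probe sets left out or a trend, 5 with equal medians or loess and 0 with all probe sets; over all genes these counts were 70, then 738 and 731, 272 and 243, and 0. The cause of the loss with all probe sets was not tested. Members past 1.5-fold numbered 8 at 10 µM, where 5 were past 1 on the log2 scale (7 without vehicle 1 and 4 without vehicle 2), and 4 in nimodipine against vehicle, where 2 were. Leaving out 1 nimodipine array turns that comparison into the other dose against vehicle. Its differences are then those of the 3-group fit and are no further check. Without the 20 µM array 5 members were past 1. Without the 10 µM array 0 were past 1, and Trib3 (-0.16), Atf5 (-0.0623), Cebpg (-0.0191), Nupr1 (-0.18) and Ppp1r15a (-0.17) were negative, as at 20 µM. At 20 µM the uncalled differences of Atf4 and Cebpg turned to -0.00581 (equal medians) and 0.0234 (loess). Without vehicle 1 or vehicle 2 the 3-group fit has no residual degrees of freedom, so only values remain; Ddit3 then differed by 3.40 or 3.33 at 10 µM and Trib3 by 3.32 or 3.19. No paired analysis was possible because the nimodipine arrays carry no replicate number and the labels tie neither vehicle array to a dose. The gaps between the vehicle arrays, from which the 3-group fit took each gene's own spread and the prior, may hold a difference between vehicles. That was not tested.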

Other observations

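The CARE core was also counted before the starts of all measured genes with a RefSeq window. Of the 113 genes called higher at 10 µM by limma, 89 had a window and 9 of these held the core (10.1%). They were the members Chac1 and Nupr1, the list genes Asns, Herpud1 and Slc7a11, and Aqp9, Avil, Chchd10 and Olfr491, which are in no list. Of the 240 called lower, 197 had a window and 5 held it (2.54%), beside 578 of 16990 measured genes (3.4%). The AP-1 site was before 10 of the 89 (11.2%) and 23 of the 197 (11.7%), beside 7.44% of all. The cyclic AMP element was before 2 of the 89 (2.25%) and 5 of the 197 (2.54%), beside 2.3% of all. These are shares of called genes with no test, and a gene with several starts counted once if any window held the motif.

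Within the 20 genes of the ATF6 and XBP1 arms, 3 had the 20 µM differences furthest from 0. Dnajb9, a co-chaperone of Hspa5, was at 8.05 and 8.15 in vehicle, 8.28 at 10 µM and 7.41 at 20 µM. Syvn1, a ubiquitin ligase of endoplasmic reticulum degradation, was at 8.69 and 8.48 in vehicle, 8.49 at 10 µM and 7.91 at 20 µM. Derl3, of the same degradation pathway, was at 5.16 and 5.49 in vehicle, and at 5.96 at 10 µM and 5.98 at 20 µM, alike at both doses. None of these passed limma's test (adjusted p = 0.762 for each), and they were chosen after their values were seen.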
